A study of Mus musculus with 23 samples.

Results

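Chemokines, interleukins, TNF superfamily ligands, colony-stimulating factors and their receptors were compared between mouse skin tumours with and without an inducible TGF-beta transgene, in papillomas and in carcinomas. The members were the genes of array probes that carry a single symbol beginning with Ccl, Cxcl, Ccr and a digit, Cxcr, Tnfsf, Tnfrsf, Csf, or Il and a digit. The rule found 68 probes for 66 genes, out of 7486 single-symbol probes for 6795 genes. By role, 39 members are ligands, 24 are receptors or receptor chains, and 3 are soluble antagonists or binding proteins (Il18bp, Il1f5 and Tnfrsf11b).

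Each of the 23 arrays was a direct hybridisation, in opposite dyes, of RNA from a bigenic and a monogenic tumour. Bigenic mice carried K5rTA and tetOTGFbeta, and monogenic mice carried K5rTA alone; the keratin 5 promoter is active in basal keratinocytes. All were adult FVB mice, labelled as 7-12 weeks old, whose skin tumours had been raised with DMBA and TPA, and all ate doxycycline chow for 48 hours before harvest, after fasting for 3 hours. The monogenic tumours thus had the transactivator and the drug too. Per the labels, TPA was applied for 20 weeks, and papillomas appeared 12 to 14 weeks and carcinomas 25 to 35 weeks into promotion. The labelled age of 7-12 weeks therefore cannot be the age at harvest. Papillomas thus appeared during the TPA treatment and carcinomas after it. Tumour class therefore cannot be told apart from the week of appearance or from its timing against TPA. The weeks are those of appearance, and tumour age at harvest was not available here. The papilloma arrays numbered 14 and covered 11 tumour pairs (8 bigenic and 7 monogenic tumours); the carcinoma arrays numbered 9 and covered 7 pairs (5 bigenic and 4 monogenic tumours). Many pairs share a tumour, and the pairs fall into 4 linked groups of papillomas and 3 of carcinomas. Several tumour names also share a number, as 228A, 228B and 228C do. Some numbers are shared across the classes, as in 257A (carcinoma) and 257B (papilloma), or 1684A (carcinoma) and 1684B (papilloma). Whether tumours with a shared number came from the same mouse was not examined. The p-values treat pairs as independent, so they are too small to the extent that shared tumours or shared mice bind the pairs together.

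A chemokine is a small secreted protein that draws leukocytes along its gradient through a G protein-coupled receptor, CC and CXC chemokines being named for the spacing of their first cysteines. Interleukins, colony-stimulating factors and TNF family ligands act through other receptor families, many of which signal through JAK kinases and STAT factors or through TRAF adaptors and NF-kB. In skin, keratinocytes as well as infiltrating leukocytes and fibroblasts make these factors, and TGF-beta is known as a regulator of both the epithelium and the immune cells of skin.

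Every value below is a log2 ratio for a tumour pair, with the arrays turned so that all run the same way and each array centred on its median. The sources used here state neither the log base nor which dye is the numerator. The values were read as log2. With Cy5 as the numerator, a positive value means more RNA in the bigenic tumour; with Cy3 as the numerator it means more in the monogenic one. Results are therefore given by side (positive or negative) and not as rises or falls. The probe annotated to Tgfb1, the gene of the growth factor that the transgene is named for, was on the positive side in 5 of 5 papilloma pairs that measured it (0.26 to 1.97) and in 2 of 3 carcinoma pairs (-0.17 to 0.12); it was measured in too few pairs to be tested. In pieces of whole tumour, a change in RNA per cell and a change in the number of cells that make the RNA cannot be told apart.

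The promoter windows of the 3 members with the largest differences between the tumour classes are shown to place them in the genome, each from 250 bases before to 50 bases after the annotated start, 5′ to 3′ on the gene's strand (RefSeq, build GRCm38.p6). Ccl8, a monocyte chemoattractant, has its window at chr11:82114935-82115234 on the + strand. Tnfrsf23, a decoy receptor for the death ligand TRAIL, has it at chr7:143685826-143686125 on the - strand. Cxcl9, a T cell chemoattractant induced by interferon-gamma, has it at chr5:92328030-92328329 on the - strand. Capitals mark matches, on either strand, to any of 4 motifs: NF-kB, AP-1 (TGANTCA), the STAT element GAS (TTCNNNGAA) and the Smad element CAGAC.
Ccl8: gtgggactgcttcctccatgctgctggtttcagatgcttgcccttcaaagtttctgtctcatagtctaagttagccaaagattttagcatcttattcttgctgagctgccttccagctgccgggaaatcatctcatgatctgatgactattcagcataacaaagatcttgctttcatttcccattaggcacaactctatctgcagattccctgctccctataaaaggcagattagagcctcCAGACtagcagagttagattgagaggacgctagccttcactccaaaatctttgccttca
Tnfrsf23: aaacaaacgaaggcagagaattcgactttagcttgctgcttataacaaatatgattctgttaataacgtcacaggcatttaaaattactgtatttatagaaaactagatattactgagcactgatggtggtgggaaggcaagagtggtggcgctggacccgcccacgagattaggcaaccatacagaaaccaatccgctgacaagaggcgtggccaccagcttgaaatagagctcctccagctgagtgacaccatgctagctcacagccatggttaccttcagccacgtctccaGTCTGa
Cxcl9: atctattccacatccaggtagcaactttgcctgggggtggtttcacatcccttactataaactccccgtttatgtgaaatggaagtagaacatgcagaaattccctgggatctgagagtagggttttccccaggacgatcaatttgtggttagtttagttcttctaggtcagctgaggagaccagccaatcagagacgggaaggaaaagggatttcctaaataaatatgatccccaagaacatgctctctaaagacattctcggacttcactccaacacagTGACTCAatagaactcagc
Ccl8 held a Smad match from -9 to -5 relative to the start, Tnfrsf23 held a Smad match from 44 to 48, and Cxcl9 held an AP-1 match from 31 to 37. No match overlapped another. Of the 66 members, 48 had promoter entries, with 58 windows in all, which were set beside all 32851 windows of the same length. The Smad letters were found in 55.2% of the members' windows and 49.6% of all windows. The NF-kB letters were found in 19% against 8.46%, the GAS letters in 15.5% against 8.3%, and the AP-1 letters in 12.1% against 7.81%. These are counts of letters, not of binding sites.

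Of the 66 members, 61 had values in 8 or more of the papilloma pairs and 5 or more of the carcinoma pairs, and entered the fit over 6413 genes. In papilloma pairs no member passed an adjusted p of 0.05 (limma, Benjamini-Hochberg over all genes tested), where 0.0624% of all genes did, and 12 members had an unadjusted p below 0.05, where 9.79% of all genes did. Of these 12, 8 were on the positive side (4.32% of all genes) and 4 on the negative (5.47%). In carcinoma pairs no member passed (0.0936% of all genes), and 7 had an unadjusted p below 0.05, against 10.8% of all genes. Of these 7, 3 were positive (4.44% of all genes) and 4 negative (6.38%). For the carcinoma value minus the papilloma value, Tnfrsf23 passed, where 0.359% of all genes did, and 10 members had an unadjusted p below 0.05, against 7.72% of all genes. Of these 10, 2 were positive (3.07% of all genes) and 8 negative (4.65%). No member was positive in every measured papilloma pair (0.468% of all genes) or in every measured carcinoma pair (1.51%).

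The members lay on the positive side more often than genes at large, but the receptors did not in carcinomas. In papillomas 47 of 61 members had a positive value, against 53.9% of all genes, and their median was 0.19 against 0.017. In carcinomas 42 of 61 were positive, against 49.1% of all genes, with a median of 0.18 against -0.0058. Of the 36 ligands tested, 28 were positive in papillomas (median 0.24) and 29 in carcinomas (median 0.25). Of the 23 receptors tested, 18 were positive in papillomas (median 0.14) and 11 in carcinomas (median -0.046). These counts describe the list and carry no test, and the gap between ligands and receptors was not tested.

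These medians rested on some of the tumours. The median over members was positive in 9 of 11 papilloma pairs, where it ran from -0.013 to 0.39. Among carcinoma pairs it was positive in 3 of 7: 1687/221 (1.11), 170/242 (0.57) and 1684A/242 (0.51), each name giving the bigenic and then the monogenic tumour. The 4 pairs of the bigenic carcinomas 236 and 237 lay from -0.32 to -0.056. Marker genes of some other cell types divided the carcinoma pairs in the same way. Macrophage markers averaged 0.64, 1.37 and 0.68 in those 3 pairs and -0.65 to 0.065 in the other 4, mast cell markers 0.99, 1.40 and 0.72 against -0.41 to -0.15, and skeletal muscle markers 2.46, 1.56 and 1.19 against -1.26 to 0.10. Neutrophil markers averaged 0.16, 0.48 and 0.60 against -1.31 to -0.095. Lymphocyte markers, positive in all 7 carcinoma pairs, averaged 0.29, 0.38 and 0.32 against 0.0019 to 0.085. Fibroblast, endothelial and keratinocyte markers did not divide the carcinoma pairs so. Fibroblast markers averaged 0.60 in 237/241A and 0.52 in 1684A/242, and endothelial markers 0.29 in 237/241A and 0.21 in 1687/221. Keratinocyte markers averaged 0.27 in 1687/221 and -0.26 in 170/242. The part of these cell types in the members' medians was not tested. Single values also rested on some of the tumours. Without the monogenic papilloma 257B the papilloma values of Il27, Tnfrsf4, Csf1 and Ccl5, described below, were -0.34, -0.14, 0.21 and 0.27. Without the monogenic carcinoma 242 the carcinoma value of Ccl6 was 0.31. Without the bigenic carcinoma 236 the class difference of Ccl11 was -0.64 and the carcinoma value of Il13ra1 was -0.22. Without the monogenic papilloma 257B, which served in 3 pairs, 35 of 61 members were positive in papillomas (50.9% of all genes) and the median was 0.031, and 2 members had an unadjusted p below 0.05 (5.61% of all genes). Without the monogenic carcinoma 242, 29 of 61 members were positive in carcinomas (48.3% of all genes) and the median was -0.0041. Without the monogenic carcinoma 257A, 23 members had an unadjusted p below 0.05 (15.5% of all genes), 20 of them positive (7.58% of all genes).

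**Figure D1:**
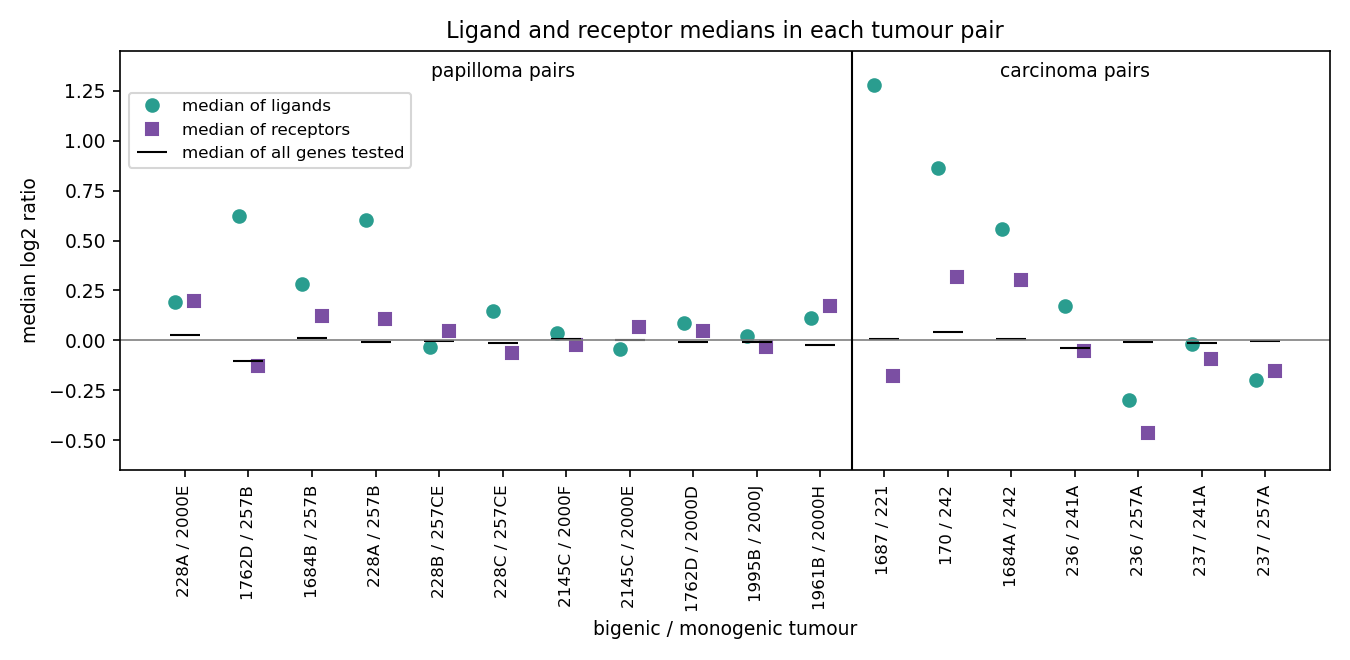
Median log2 ratio of the ligands (circles) and of the receptors (squares) among the tested members in each tumour pair, with the median of all genes tested (dashes), papilloma pairs left of the line and carcinoma pairs right of it. The ligand median lies above 0 in 9 of 11 papilloma pairs and 4 of 7 carcinoma pairs, and the receptor median in 7 of 11 and 2 of 7.

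Ligand and receptor medians separated most in the carcinoma pair 1687/221, where the ligand median was 1.28 and the receptor median -0.18. In the pair 170/242 the ligand median was 0.86 and the receptor median 0.32. In the pair 236/257A both medians were negative, at -0.30 for ligands and -0.46 for receptors. The papilloma pairs with the highest ligand medians were 1762D/257B (0.62) and 228A/257B (0.60), which share a monogenic tumour.

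**Figure D2:**
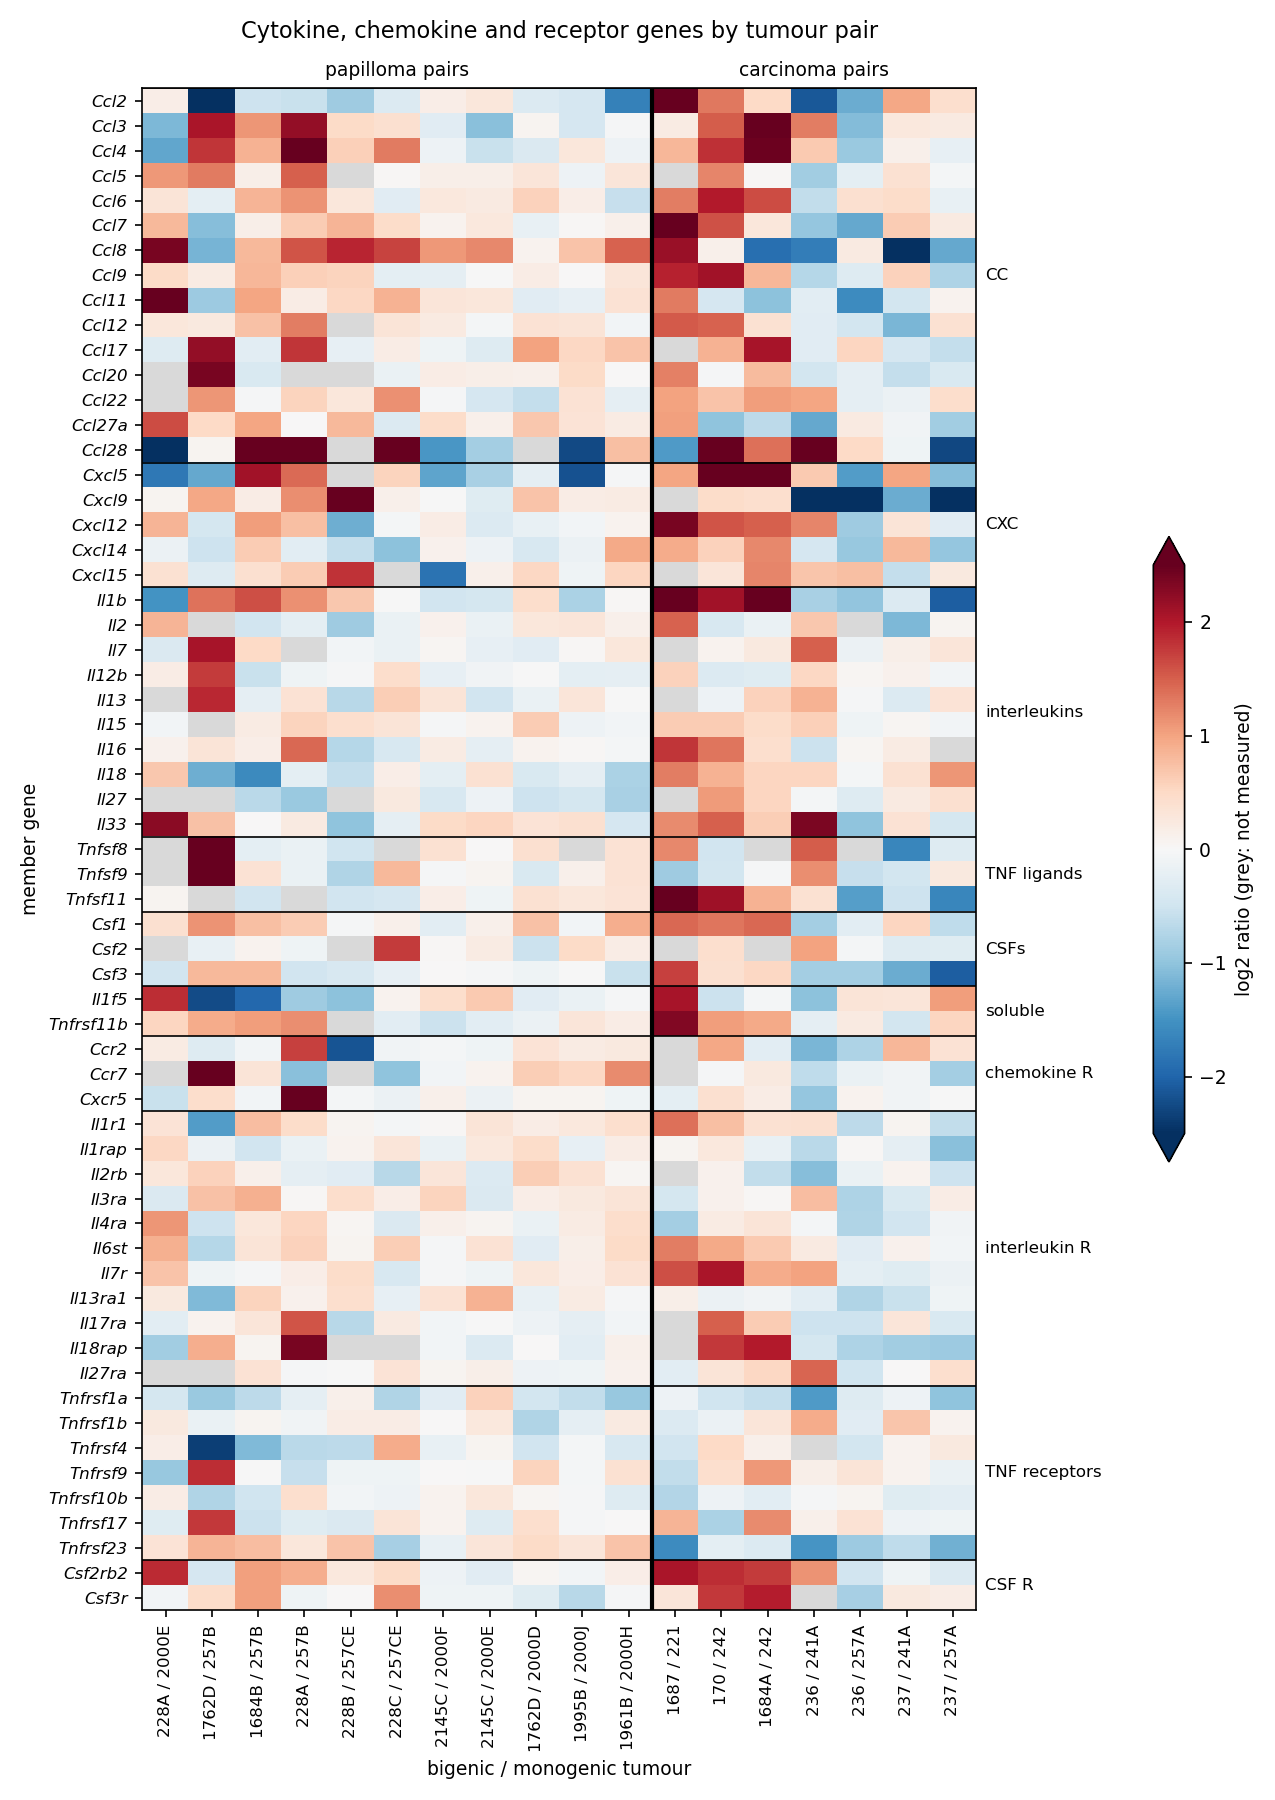
Log2 ratio of each of the 61 tested members (rows, grouped by role) in each of the 18 tumour pairs (columns), on a colour scale that ends at 2.5 on either side, with values that were not measured in grey. Red is the positive side; in Ccl8 10 of 11 papilloma pairs are red, and in Tnfrsf23 all 7 carcinoma pairs are blue.

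Tnfrsf23 was the member that differed between the classes. Its product binds TRAIL without passing on a death signal. Among the 11 papilloma pairs its value ran from -0.82 (228C/257CE) through a median of 0.34 to 0.85 (1762D/257B), and 9 of 11 pairs were positive. Among the 7 carcinoma pairs it ran from -1.57 (1687/221) through a median of -0.92 to -0.24 (170/242), and none was positive. The classes overlap only through the papilloma pair 228C/257CE. The fitted value was 0.39 ± 0.14 (SE, 11 pairs) in papillomas and -0.88 ± 0.19 (SE, 7 pairs) in carcinomas, with adjusted p-values of 0.358 and 0.0594 in limma. The carcinoma value minus the papilloma value was -1.27 ± 0.23 (95% interval -1.75 to -0.79, adjusted p = 0.0127, limma). Every measured carcinoma pair was negative in 1.95% of all genes tested.

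This difference kept its sign in every fit made, and several fits ended its call. With the mean over each bigenic tumour as the replicate it was -1.19 (5 carcinomas against 8 papillomas, adjusted p = 0.12 in limma), and the mean over each linked group as the replicate gave -1.31 (adjusted p = 0.54). The call was also lost with the range of experiment numbers in the labels as a block (-1.13, adjusted p = 0.135, limma), and without any of the tumours 236 (adjusted p = 0.0599), 237 (0.0771), 241A (0.114) or 257B (0.0778). Within the middle range of experiment numbers the mean was -0.005 over 4 papilloma arrays and -0.78 over 7 carcinoma arrays, and within the highest range 0.78 over 5 papilloma arrays and -1.57 on 1 carcinoma array; the lowest range held papillomas alone. In 4 pairs measured in both dye orientations, the array with the bigenic tumour in Cy5 gave the higher value each time, and the sign was the same in 3 of them. The carcinoma value alone passed in some fits: it was -0.98 with the bigenic tumour in Cy3 only (adjusted p = 0.00898, limma) and -1.07 without the monogenic tumour 242 (0.0489). At -0.88 it passed without the papillomas 228C (0.0276), 257B (0.0482) or 257CE (0.0285), which enter only the shared spread. The fit with the bigenic tumour in Cy3 only holds 1 orientation and so cannot correct for dye. The dye term of Tnfrsf23 was 0.35 ± 0.12 (SE, unadjusted p = 0.00896, adjusted p = 0.171, limma). With that term in the fit, the carcinoma value had an adjusted p of 0.454 and the class difference 0.00641 (limma).

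Ccl8 had the smallest p of any member in papillomas and the second smallest for the class difference. Among papilloma pairs it ran from -1.16 (1762D/257B) through a median of 1.20 to 2.37 (228A/2000E). It was positive in 10 of 11 papilloma pairs and was the highest of all members in 4 of them. Among carcinoma pairs it ran from -2.55 (237/241A) through a median of -1.28 to 2.16 (1687/221), and 3 of 7 were positive. The highest carcinoma pair lies within the papilloma range, and 4 of the other carcinoma pairs lie below every papilloma pair. The fitted value was 1.14 ± 0.32 in papillomas (adjusted p = 0.197, limma) and -0.81 ± 0.40 in carcinomas (adjusted p = 0.472). The difference was -1.95 ± 0.51 (95% interval -3.01 to -0.89, adjusted p = 0.116, limma), which did not pass.

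The Ccl8 result changed with the scaling and with single tumours. With the spread of every array made equal, the papilloma value was 1.42 (adjusted p = 0.0237, limma) and the difference -2.14 (0.0302); with quantile normalisation they were 1.64 (0.0165) and -2.52 (0.0142). Without the carcinoma pair 1687/221 the difference was -2.32 (adjusted p = 0.0176, limma). Without the bigenic carcinoma 237 it was -1.29 (adjusted p = 0.579), and without the monogenic carcinoma 241A it was -1.22 (0.667). It passed in 4 of 39 alternatives, with adjusted p-values from 0.0142 to 0.667 (limma). Of these passes, 2 are the same fit, since leaving out 1687 or 221 drops the same pair. With the mean over each bigenic tumour as the replicate the difference was -1.59. All 5 pairs hybridised in both orientations gave the same sign for Ccl8 both ways, from 0.77 and 0.83 in 1684B/257B to -3.24 and -1.86 in 237/241A. Over all members tested, 69.0% of such value pairs had the same sign, against 51.0% over all genes. Over all genes the sign thus matched about as often as not. The correlation of the orientations over all genes ran from -0.0049 (228A/257B) to 0.36 (1684B/257B). Their median gap ran from 0.44 to 0.49 by pair. The dye term had an unadjusted p below 0.05 in 1047 of 6413 genes and in 9 of 61 members (limma). Of the 18 pairs, only these 5 were hybridised both ways.

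**Figure D3:**
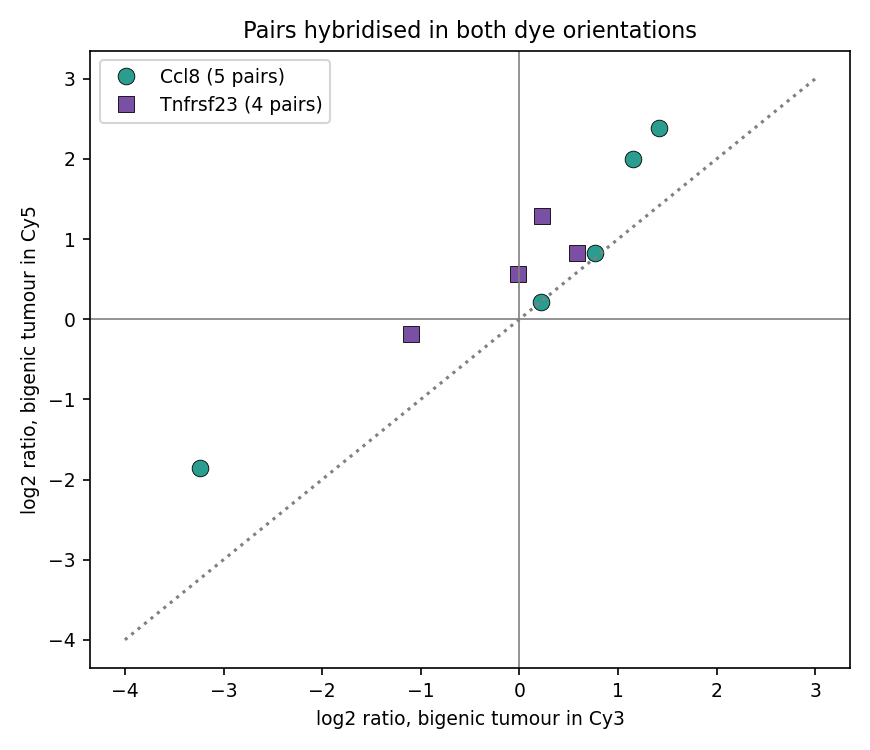
Log2 ratio of Ccl8 (circles, 5 pairs) and Tnfrsf23 (squares, 4 pairs) in tumour pairs hybridised in both dye orientations, with the bigenic tumour in Cy3 (x axis) and in Cy5 (y axis); the dotted line marks equal values. All Ccl8 points lie in quadrants of equal sign, and all Tnfrsf23 points lie above the line.

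**Figure D4:**
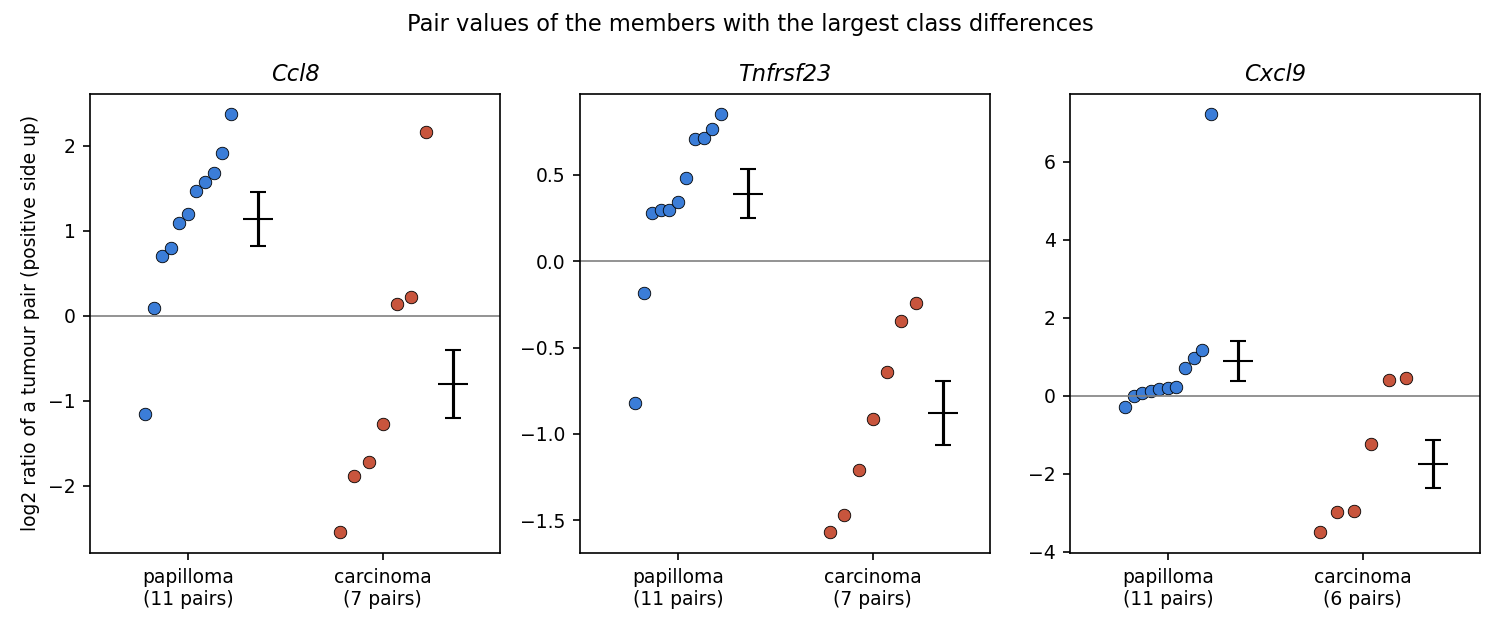
Log2 ratio of each tumour pair (points) for Ccl8, Tnfrsf23 and Cxcl9 in papillomas and carcinomas, with the fitted class value and its SE beside them; each panel has its own axis. All 7 carcinoma pairs of Tnfrsf23 lie below 0, and a single papilloma pair of Cxcl9 lies at 7.21.

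Among the CC chemokines, 14 of 15 tested had a positive papilloma value (median 0.41), and 11 of 15 had a positive carcinoma value (median 0.38). None passed the test in either class. Ccl27a, made by keratinocytes and known for drawing T cells to skin, was positive in 10 of 11 papilloma pairs (-0.34 to 1.64, median 0.45) and in 2 of 7 carcinoma pairs (-1.27 to 1.03, median -0.65). Its fitted values were 0.52 ± 0.18 and -0.28 ± 0.22, and the difference was -0.79 ± 0.28 (adjusted p = 0.383, limma). Ccl11, the eosinophil chemoattractant eotaxin, lay at 0.49 ± 0.24 in papillomas and -0.48 ± 0.30 in carcinomas, with a difference of -0.97 ± 0.39 (adjusted p = 0.487). Ccl11 reached 2.99 in the papilloma pair 228A/2000E, the pair in which Ccl8 was also highest.

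Ccl8 and Ccl11 share a stretch of chromosome 11 with other chemokine genes, in the order Ccl2, Ccl7, Ccl11, Ccl12, Ccl8 by the RefSeq annotation. Their neighbours had other values. Ccl2, the best known monocyte chemoattractant, lay at -0.62 ± 0.33 in papillomas and 0.38 ± 0.41 in carcinomas, and was the CC chemokine with a negative papilloma value. Ccl7 lay at 0.27 and 0.31, and Ccl12 at 0.40 and 0.035. In the next stretch, Ccl5, Ccl9, Ccl6, Ccl3 and Ccl4 all had positive values in both classes. Closely related members of this family can cross-hybridise on cDNA probes, which was not tested.

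Among the chemokines of that second stretch, Ccl5, a T cell chemoattractant, was positive in 9 of 10 papilloma pairs (-0.13 to 1.5, median 0.22), with a fitted value of 0.45 ± 0.19 (adjusted p = 0.437, limma). In carcinomas Ccl5 lay at 0.072 ± 0.22. Ccl6, a myeloid chemokine of rodents, lay at 0.36 ± 0.19 in papillomas and 0.65 ± 0.23 in carcinomas (adjusted p = 0.275), where its pairs ran from -0.62 (236/241A) to 1.98 (170/242). Its neighbour Ccl9 lay at 0.31 ± 0.20 and 0.53 ± 0.26. The macrophage inflammatory proteins Ccl3 and Ccl4 had papilloma values of 0.51 ± 0.31 and 1.02 ± 0.45, and the highest papilloma value of each fell in the pair 228A/257B, at 2.19 for Ccl3 and 5.26 for Ccl4. Each of the chemokines Ccl3, Ccl4 and Ccl6 was below 0 in some pairs of each class.

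Ccl17 and Ccl22, ligands of the receptor Ccr4, lay at 0.41 ± 0.24 and 0.22 ± 0.18 in papillomas and at 0.39 ± 0.32 and 0.38 ± 0.20 in carcinomas. Ccl20 lay at 0.26 ± 0.25 and -0.029 ± 0.26. Ccl28, a mucosal chemokine, had the least settled value of the group: its papilloma pairs ran from -3.64 to 4.19 and its carcinoma pairs from -2.28 to 4.86, and its fitted values were 0.92 ± 0.75 and 0.89 ± 0.83.

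Of the CXC chemokines tested, 3 of 5 were positive in papillomas and 4 of 5 in carcinomas. Cxcl9 differed most in size between the classes. Its papilloma pairs ran from -0.30 through a median of 0.19 to 7.21, and the value of 7.21 came from 1 array of the pair 228B/257CE, whose array in the other orientation did not measure it. Its 6 carcinoma pairs ran from -3.50 (237/257A) through a median of -2.09 to 0.46, and the 4 negative ones all involved the bigenic tumours 236 and 237. The fitted value was 0.89 ± 0.50 in papillomas and -1.75 ± 0.62 in carcinomas (adjusted p = 0.27, limma), and the difference was -2.64 ± 0.80 (adjusted p = 0.245). Without the bigenic papilloma 228B, and so without the value of 7.21, the papilloma value was 0.32 and the difference -2.06 (adjusted p = 0.0916, limma). Without the bigenic carcinoma 236 the carcinoma value was -1.02, and without the monogenic carcinoma 257A it was -0.91. The difference passed in 1 of 38 alternatives, quantile normalisation, at -2.29 (adjusted p = 0.0482, limma).

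Cxcl12, the stromal cell-derived factor, lay at 0.083 ± 0.25 in papillomas and 0.58 ± 0.31 in carcinomas, where it ran from -0.89 (236/257A) to 2.37 (1687/221). Cxcl5, a neutrophil chemoattractant, lay at -0.0072 ± 0.45 and 0.69 ± 0.52, with pairs from -2.17 to 2.09 and from -1.39 to 3.32. Cxcl14, an epithelial chemokine, lay at -0.13 ± 0.20 and 0.12 ± 0.25, and Cxcl15 at 0.23 ± 0.23 and 0.43 ± 0.30. None of these 4 genes had an unadjusted p below 0.05 in either class.

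All 10 interleukins tested had a positive value in carcinomas (median 0.24), and 7 of 10 in papillomas (median 0.12), with none past the test. Il18, an IL-1 family cytokine known for inducing interferon-gamma, took opposite sides. Its papilloma pairs ran from -1.60 (1684B/257B) through a median of -0.25 to 0.67, with 3 of 11 positive, and its carcinoma pairs from -0.045 through a median of 0.54 to 1.28, with 6 of 7 positive. The fitted values were -0.47 ± 0.17 (adjusted p = 0.383, limma) and 0.55 ± 0.22 (adjusted p = 0.32), and the difference was 1.02 ± 0.28 (adjusted p = 0.145). The papilloma value was -0.18 without the monogenic papilloma 257B and -0.28 without the bigenic papilloma 1684B. The difference passed in 1 of 39 alternatives, with a dye term (1.03, adjusted p = 0.0467, limma). The carcinoma value passed in 1 of 39, with the bigenic tumour in Cy3 only (0.75, adjusted p = 0.0323, limma). The dye term of Il18 was -0.37 ± 0.13 (SE, unadjusted p = 0.00721, adjusted p = 0.157, limma). In the carcinoma pairs 236/257A and 237/241A, Il18 gave 0.26 and 0.70 with the bigenic tumour in Cy3. With that tumour in Cy5 it gave -0.35 and 0.057.

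Il27, the gene of a subunit of the cytokine IL-27, was negative in 7 of 8 papilloma pairs (-0.93 to 0.25, median -0.47) and positive in 4 of 6 carcinoma pairs (-0.33 to 1.06). Its fitted values were -0.52 ± 0.16 (adjusted p = 0.244, limma) and 0.22 ± 0.18, and the difference was 0.74 ± 0.24 (adjusted p = 0.312). Il1b, a pro-inflammatory cytokine made mainly by myeloid cells, spread from -1.49 to 1.61 in papillomas and from -2.07 to 3.01 in carcinomas. Its fitted values, 0.39 ± 0.36 and 0.24 ± 0.45, were smaller than that spread. Il15, a survival factor of natural killer cells and memory T cells, lay at 0.24 ± 0.11 and 0.24 ± 0.14. Il33, an alarmin of barrier cells, lay at 0.19 ± 0.26 and 0.44 ± 0.32. The other interleukins tested (Il2, Il7, Il12b, Il13 and Il16) had fitted values from -0.13 to 0.22 in papillomas and from 0.079 to 0.44 in carcinomas.

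Among ligands of the TNF superfamily, Tnfsf8 (the ligand of CD30) and Tnfsf9 each reached 2.75 in the papilloma pair 1762D/257B, while their other papilloma pairs ran from -0.50 to 0.40 and from -0.75 to 0.81. The log2 ratios of all genes also spread most widely in that pair (SD 1.17, against 0.286 to 0.695 in the other papilloma pairs), and its mean of the lymphocyte markers was the highest of the papilloma pairs (0.99). Their fitted papilloma values were 0.23 ± 0.31 and 0.28 ± 0.23, and their carcinoma values 0.055 ± 0.44 and -0.23 ± 0.26. Tnfsf11, the ligand RANKL, ran from -1.63 (237/257A) to 4.11 (1687/221) in carcinomas and lay at 0.33 ± 0.44 there. Of the colony-stimulating factors, Csf1, the macrophage growth factor, was positive in 8 of 11 papilloma pairs (-0.27 to 1.13), at 0.42 ± 0.19 (adjusted p = 0.478, limma), and lay at 0.36 ± 0.23 in carcinomas. Csf3, the granulocyte factor G-CSF, lay at -0.050 ± 0.22 and -0.50 ± 0.28, and Csf2, the factor GM-CSF, at 0.17 ± 0.18 and 0.055 ± 0.23.

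**Figure D5:**
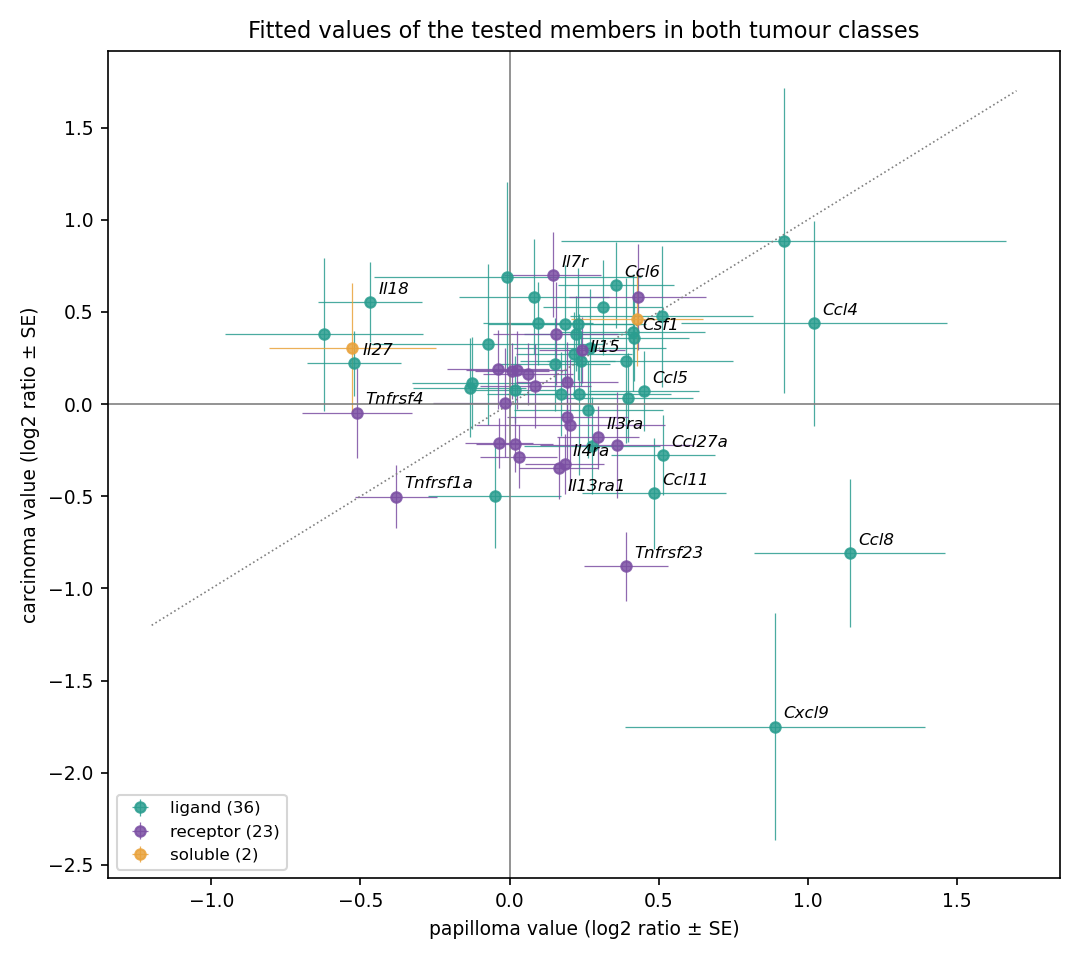
Fitted log2 ratio of each of the 61 tested members in papillomas (x axis) and carcinomas (y axis), with SE bars, coloured by ligand, receptor or soluble protein; names mark members with an unadjusted p below 0.05 in either class or for the difference, and the dotted line marks equal values. Tnfrsf23, Ccl8 and Cxcl9 lie far below the line, and Il18 lies above it.

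Receptors for interleukins were all positive in papillomas (11 of 11 tested, median 0.16) and divided in carcinomas (5 of 11, median -0.11), with none past the test. Il4ra and Il13ra1, the chains that together form a receptor for IL-4 and IL-13, had similar values. Il4ra lay at 0.19 ± 0.13 and -0.33 ± 0.17, with a difference of -0.51 ± 0.21 (adjusted p = 0.529, limma), and Il13ra1 at 0.17 ± 0.13 and -0.35 ± 0.17, with a difference of -0.51 ± 0.21 (adjusted p = 0.529). Il13ra1 was negative in 6 of 7 carcinoma pairs and Il4ra in 5 of 7. Il3ra lay at 0.30 ± 0.14 and -0.18 ± 0.17, with a difference of -0.48 ± 0.22 (adjusted p = 0.625).

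Il7r, the receptor chain for the lymphocyte survival factor IL-7, went the other way. Its carcinoma pairs ran from -0.29 (237/241A) through a median of 0.93 to 2.05 (170/242), and the fitted value was 0.70 ± 0.23 (adjusted p = 0.243, limma), against 0.14 ± 0.16 in papillomas. The 3 negative carcinoma pairs were those of 237 with either monogenic tumour and of 236 with 257A. Without the monogenic carcinoma 242 the carcinoma value was 0.39 (adjusted p = 0.952, limma). Without the bigenic carcinoma 237 it was 1.07 (0.0746), and without the monogenic carcinoma 257A 1.06 (0.0352), the 1 alternative of 39 in which it passed. The 3 pairs with Il7r values in both orientations were papillomas, and its sign matched in none of them. No carcinoma array with the bigenic tumour in Cy5 measured Il7r, so its carcinoma value had no such check. Il6st, the shared signalling chain gp130, had 2 probes, which gave 0.24 and 0.24 in papillomas and 0.19 and 0.41 in carcinomas. The other chains (Il1r1, Il1rap, Il2rb, Il17ra, Il18rap and Il27ra) had fitted values from 0.017 to 0.20 in papillomas and from -0.28 to 0.16 in carcinomas.

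Of the TNF receptor superfamily, 3 of 7 members were positive in papillomas and 3 of 7 in carcinomas. Tnfrsf1a, the receptor that carries most TNF signals, was negative in 9 of 11 papilloma pairs (-0.95 to 0.58, median -0.47) and in 7 of 7 carcinoma pairs (-1.41 to -0.12, median -0.49). Its fitted values were -0.38 ± 0.14 (adjusted p = 0.358, limma) and -0.50 ± 0.17 (adjusted p = 0.263), and the difference was -0.12 ± 0.22 (95% interval -0.58 to 0.33). With the bigenic tumour in Cy3 only, a fit that cannot correct for dye, the carcinoma value was -0.67 (adjusted p = 0.0398, limma). In the 5 pairs with both orientations the sign matched in 2. The mean of Tnfrsf1a over these pairs was -0.57 with the bigenic tumour in Cy3 and 0.09 in Cy5. Its dye term was 0.33 ± 0.10 (SE, unadjusted p = 0.00309, adjusted p = 0.12, limma). Tnfrsf4, the T cell co-stimulator OX40, lay at -0.51 ± 0.19 in papillomas (adjusted p = 0.358, -2.35 to 0.93 over pairs) and -0.046 ± 0.24 in carcinomas. Tnfrsf10b, the death receptor for TRAIL, lay at -0.034 ± 0.11 and -0.21 ± 0.14, with a difference of -0.18 ± 0.18 (95% interval -0.55 to 0.19). Tnfrsf1b, Tnfrsf9 and Tnfrsf17 lay between -0.037 and 0.024 in papillomas and between 0.18 and 0.19 in carcinomas.

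None of the 3 chemokine receptors tested had an unadjusted p below 0.05 in either class. Ccr7, which guides leukocytes to lymph nodes, lay at 0.36 ± 0.26 and -0.22 ± 0.29, and Cxcr5, known from B cell follicles, at 0.19 ± 0.20 and -0.067 ± 0.23. Ccr2, the receptor of the monocyte chemoattractants, lay at -0.015 ± 0.24 in papillomas and 0.0084 ± 0.29 in carcinomas, with pairs from -2.16 to 1.71 and from -1.14 to 0.96. Of the colony-stimulating factor receptors, Csf2rb2 lay at 0.43 ± 0.23 and 0.58 ± 0.29, and Csf3r at 0.15 ± 0.21 and 0.38 ± 0.28. In the carcinoma pairs 170/242 and 1684A/242, which share a monogenic tumour, Csf2rb2 gave 1.85 and 1.74 and Csf3r gave 1.77 and 1.97.

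Of the soluble proteins, Il1f5, which blocks the receptor for IL-36, lay at -0.53 ± 0.28 in papillomas and 0.31 ± 0.35 in carcinomas. Tnfrsf11b, osteoprotegerin, which captures RANKL, lay at 0.43 ± 0.22 and 0.46 ± 0.26. The members measured in too few pairs to be tested were Ccl25 (8 papilloma and 3 carcinoma pairs), Cxcl10 (7 and 6), Il18bp (7 and 5), Il2ra (7 and 6) and Il4 (9 and 4). Il18bp, which binds IL-18, was negative in 5 of 5 carcinoma pairs (-0.64 to -0.40), and Cxcl10, like Cxcl9 induced by interferon, ran from -2.19 (236/257A) to 2.16 (1684A/242) in carcinomas. The sides of Cxcl10 and Cxcl9 matched in 5 of the 6 carcinoma pairs that measured both.

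Genes that act beside the members were read from lists of signalling and related factors. In the list of NF-kB and TNF receptor signalling, 16 of 20 genes were positive in papillomas and 11 of 20 in carcinomas, with none past the test. Its gene of smallest p was Tradd, the adaptor of the TNF receptor, at 0.0083 ± 0.12 in papillomas and -0.70 ± 0.15 in carcinomas (adjusted p = 0.0601, limma, negative in 7 of 7 pairs). In the list of JAK-STAT signalling, 18 of 22 were positive in papillomas and 8 of 22 in carcinomas. Its member Irf1, an interferon-induced transcription factor, passed for the difference, at 0.51 ± 0.12 in papillomas, -0.55 ± 0.15 in carcinomas and a difference of -1.06 ± 0.19 (adjusted p = 0.0127, limma). Of the cytokines and receptors that the symbol rule leaves out, 20 of 27 were positive in papillomas and 11 of 27 in carcinomas. Among them Cx3cl1, the chemokine fractalkine, passed for the difference, at 0.53 ± 0.17, -0.65 ± 0.20 and a difference of -1.18 ± 0.26 (adjusted p = 0.0485, limma). With the mean over each linked group as the replicate, no gene of the 6413 passed in any comparison. The calls of Irf1 and Cx3cl1, and those of the marker genes Chil3 and Krt13 below, were thus lost there.

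Markers of other cell types moved with the pairs, and their part in the values above was not tested. Macrophage markers were positive in 17 of 18 genes in papillomas (median 0.20; mean over the list from -0.71 to 0.84 by pair) and 15 of 18 in carcinomas (median 0.46; -0.65 to 1.37 by pair), and 10 of them were positive at an unadjusted p below 0.05 in carcinomas (4.44% of all genes). Their mean was highest in carcinoma pair 170/242 and lowest in 236/241A. The macrophage marker Chil3 went against this list, at -3.53 ± 0.50 in carcinomas (adjusted p = 0.00303, limma). Neutrophil markers were positive in 5 of 7 and 2 of 7 genes, lymphocyte markers in 9 of 12 and 10 of 12, and mast cell markers in 4 of 4 and 3 of 4. Fibroblast markers were positive in 2 of 9 genes in papillomas and 8 of 9 in carcinomas, endothelial markers in 4 of 9 and 7 of 9, and skeletal muscle markers in 16 of 17 and 15 of 17. Keratinocyte markers were positive in 0 of 11 genes in papillomas (median -0.32), with 7 negative at an unadjusted p below 0.05 (5.47% of all genes), and in 4 of 11 in carcinomas; Krt13, a keratin that marks progression of such tumours, passed for the difference at 5.46 ± 0.80 (adjusted p = 0.00178, limma).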

How the data were processed

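The 23 two-colour cDNA arrays each paired a bigenic with a monogenic tumour. The authors deposited 1 signed value per probe and array, per the file headers; neither the headers nor the labels give its log base, numerator, background correction, normalisation or centring. The deposited values were taken as log2 ratios, from their range and signs. Their medians by array ran from -0.342 to 0.014. Each array measured 6729 to 9573 of 9596 probes; single-channel intensities were not used here. The number of arrays limits the precision. Arrays with the bigenic tumour in Cy3 (18) or Cy5 (5) were turned to run the same way and centred on their median. Probes of a gene were averaged, and arrays of the same pair were averaged and weighted by their number.

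Class means and their difference were fitted with limma 3.58.1 (R 4.3.3) over 6413 genes, with Benjamini-Hochberg adjustment and a threshold of 0.05. The fit was tested on simulated pairs with independent noise, which held no effect of shared tumours or of dye, so that test does not cover them. Array numbers are shared by the classes but number arrays only. Probe names come from the platform annotation, which is old; 4 probes with several symbols that include a member's name were left out. All 68 member probes matched an Entrez entry.

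The members and lists were chosen with earlier results of these data known. Named genes were Ccl8 and Tnfrsf23, members past the threshold, the 8 of smallest p in each comparison, the first 2 of each role group and up to 3 of each pathway list; further members are named to account for all of them. Alternatives covered dye, centring, spread, filters, probes, shared tumours, orientation, ranges of experiment numbers and each tumour left out.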

Additional observations from a re-analysis of the deposited data

Results flagged for a closer look

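Tnfrsf23 differed between the tumour classes, with a carcinoma value minus papilloma value of -1.27 (adjusted p = 0.0127, limma, Benjamini-Hochberg over 6413 genes). Tnfsf8 and Tnfsf9 each had a papilloma pair, 1762D/257B, far from the others, at 2.75 for both genes, while the other pairs ran from -0.50 to 0.40 for Tnfsf8 and from -0.75 to 0.81 for Tnfsf9. Over all genes this pair had the widest spread of the papilloma pairs (SD 1.17, against 0.286 to 0.695). Of 33 groups of pairs examined for such a value, 2 had it, and chance gives about 1 in 20.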

How the results depend on the processing

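The number of members past an adjusted p of 0.05 was 0 in papillomas, 0 in carcinomas and 1 for the difference. In papillomas it was 1 with equal spread on every array and 1 with quantile normalisation. In carcinomas it was 1 with the linked group or the monogenic tumour as a random block, 1 without the pair of 1762D with 257B, and 3 with the bigenic tumour in Cy3 only. For the difference it was 2 with a dye term, 2 with equal spread, 3 with quantile normalisation, 0 with the range of experiment numbers as a block, and, in alternatives chosen after seeing the data, 0 with the bigenic tumour or the linked group as the replicate. Leaving out each tumour in turn gave 0 in papillomas, 0 to 1 in carcinomas and 0 to 2 for the difference. Over all genes, the count past the threshold was 4 in papillomas, 6 in carcinomas and 23 for the difference; it was 41, 5 and 43 with equal spread, 47, 11 and 41 with quantile normalisation (30 of the 47 positive, against 2 of the 4), 15, 209 and 25 with the bigenic tumour in Cy3 only, 9, 19 and 33 with linked groups as a block, 8, 20 and 34 with the monogenic tumour as a block, 6, 5 and 43 with a dye term, 0, 1 and 16 for genes in every pair, 1, 7 and 24 with each probe on its own, 1, 18 and 24 without the pair of 1762D with 257B, 5 and 0 with the classes fitted separately, 18, 3 and 16 with the range block, 0, 113 and 14 with the bigenic tumour as the replicate, and 0, 0 and 0 with the linked group as the replicate. Leaving out a tumour gave 0 to 7, 3 to 95 and 5 to 36 genes.

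The array number as a replicate block gave 0 members and 5 genes for the difference, and Tnfrsf23 lay at -1.47 (adjusted p = 0.0506, limma). The deviations of same-numbered arrays had a correlation above 0 in 4 of 9 numbers (from -0.25 to 0.17, mean -0.045), so the numbers were not used to pair samples. Tnfrsf23 in carcinomas passed in 8 alternatives, among them -0.98 with the bigenic tumour in Cy3 only (adjusted p = 0.00898, limma). Its adjusted p over alternatives ran from 0.00898 to 0.454 (limma), the highest with a dye term. The class difference of Tnfrsf23 passed in 31 of 39. Of 27 values named with an unadjusted p below 0.05, all 1047 values under the alternatives kept their sign. Of the 54 others named, 88 of 2085 did not, and none passed. The 27 were picked by p in these data and the alternatives reuse most of the same arrays, so kept signs are no independent support.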

Other observations

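The 4 probes with several symbols, left out by the rule, gave these values over arrays. The probe of Ccl21b, Ccl21c and Ccl21a, lymphoid chemokines, averaged 0.65 in papillomas (9 of 14 arrays positive) and -0.11 in carcinomas (4 of 9). The probe of Tnfsfm13, Tnfsf13 and Tnfsf12 averaged -0.018 in papillomas (7 of 14) and 0.68 in carcinomas, where 9 of 9 arrays were positive (0.049 to 1.38). The probe of Art3 and Cxcl10 averaged 0.12 (8 of 13) and -0.24 (4 of 9). The probe of 4631412M08Rik and Cxcl13 reached 10.2 on a single carcinoma array and was positive on 6 of 8.

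The bigenic carcinomas 236 and 237 were each set against the monogenic carcinomas 241A and 257A, so the step between the monogenic tumours can be read through either. For Ccl8 it was -1.93 through 236 and -1.27 through 237, a gap of -0.67, and for Tnfrsf23 the gap was -1.12; the median size of this gap over all genes was 0.95.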
